A study of Mus musculus with 4 samples.

Results

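Open chromatin sites that lay near the ends of neighbouring genes were examined in haematopoietic stem cells (HSCs) of mouse bone marrow. A site is a summit, the point of highest signal in an ATAC-seq peak, as listed by the authors. The members were the summits of CD93-negative replicate 1, the longest list, on chromosomes 1 to 19 and X that lay within 1000 bp of an end of 2 or more different protein-coding genes. There were 1185 such summits among 7977 in that list, or 14.9% (exact Clopper-Pearson 95% interval 14.1 to 15.7). They are called gene-pair sites here, and 1159 of them lay near exactly 2 genes and 26 near 3 or more. They were compared with 4853 single-gene sites, which lay near an end of 1 gene, while 1939 summits lay near no gene end. The 1185 sites involved 2327 different genes out of 21631.

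All libraries came from wild-type C57BL/6 male mice aged 8 weeks, from marrow of pooled femora and tibia. The sort took LSK cells, which lack lineage markers and carry Sca-1 and Kit, that were CD34-, CD48-, Flt3- and Slam1+, and split them by surface CD93, a transmembrane C-type lectin-like receptor. There were 2 CD93-positive and 2 CD93-negative libraries, and no treatment. Separate mice are not named for the replicates, so p-values measure only the spread between these libraries, which may be technical.

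In ATAC-seq, the Tn5 transposase cuts and tags DNA where it is not covered by nucleosomes, which is most often at active promoters and enhancers. Many mammalian genes are arranged head to head, with starts a short distance apart and transcription running outwards in opposite directions. The stretch between such starts is called a bidirectional promoter. It is often a CpG island, rarely carries a TATA box, and commonly serves housekeeping genes for DNA repair, mitochondria and protein synthesis.

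The lists differed widely in length. On the same chromosomes the CD93-positive lists held 18 (replicate 1) and 701 (replicate 2) summits, and the CD93-negative lists 7977 and 2748. Read depth is unknown, so a site missing from a shorter list was not shown to be closed. In these bulk samples, fewer cells with an open site and a less open site in each cell cannot be told apart. Among 12 HSC marker genes, none lay at a gene-pair site and 2, Tal1 and Lyl1, lay at a single-gene site. None of 8 endothelial and stromal markers and none of 8 mature blood cell markers lay at either kind of site. Over all 21631 genes, 10.8% lay at a gene-pair site and 21.8% at single-gene sites only. The marker counts are small and were not tested against these shares.

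The stretches between the starts of 8 head-to-head pairs are shown because the results that follow turn on them. Npc2/Isca2, Larp7/Zgrf1 and Ro60/Uchl5 are among the pairs with high scores in all 3 longer lists. Nudt21/Ogfod1 was the pair also listed in CD93-positive replicate 1. Ranbp1/Trmt2a and Mrps12/Sars2 are well-known head-to-head pairs, and H2ac22/H2bc22 and H2ac15/H2bc15 are histone pairs. Each line gives the plus strand of GRCm38.p6 (mm10), 5′ to 3′, as joined from RefSeq promoter sequences. The gene named ahead of the slash runs leftward from the left edge and the other gene runs rightward from the right edge. Capitals mark matches, on either strand, to the CCAAT box (CCAAT, or ATTGG on the other strand), the GC box (GGGCGG), the ETS motif (CCGGAAG), the NRF1 motif (GCATGCGC), the CRE (TGACGTCA), the AP-1 motif (TGANTCA) or the TATA box (TATAAA). A match is a run of letters and not a measured binding site.
Npc2/Isca2, chr12:84773113-84773269, plus strand: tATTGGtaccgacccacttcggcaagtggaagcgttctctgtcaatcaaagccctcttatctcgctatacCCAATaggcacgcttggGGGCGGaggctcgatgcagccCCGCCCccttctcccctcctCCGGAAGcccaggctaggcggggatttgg
Larp7/Zgrf1, chr3:127553350-127553488, plus strand: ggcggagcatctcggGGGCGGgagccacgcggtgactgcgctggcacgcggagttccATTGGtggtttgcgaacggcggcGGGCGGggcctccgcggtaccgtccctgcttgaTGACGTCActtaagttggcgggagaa
Ro60/Uchl5, chr1:143777052-143777277, plus strand: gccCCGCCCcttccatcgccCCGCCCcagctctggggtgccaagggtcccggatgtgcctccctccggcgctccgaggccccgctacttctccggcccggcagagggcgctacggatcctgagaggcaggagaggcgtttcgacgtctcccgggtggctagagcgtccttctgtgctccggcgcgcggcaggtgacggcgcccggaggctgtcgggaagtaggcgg
Nudt21/Ogfod1, chr8:94037040-94037197, plus strand: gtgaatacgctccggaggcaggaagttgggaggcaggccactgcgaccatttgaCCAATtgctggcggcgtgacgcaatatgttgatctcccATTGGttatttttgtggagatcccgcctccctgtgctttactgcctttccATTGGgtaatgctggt
Ranbp1/Trmt2a, chr16:18248695-18248882, plus strand: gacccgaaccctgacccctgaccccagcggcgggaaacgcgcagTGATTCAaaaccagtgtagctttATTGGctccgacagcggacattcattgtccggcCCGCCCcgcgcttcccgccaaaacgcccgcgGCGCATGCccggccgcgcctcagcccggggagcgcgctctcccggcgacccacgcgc
Mrps12/Sars2, chr7:28741822-28741967, plus strand: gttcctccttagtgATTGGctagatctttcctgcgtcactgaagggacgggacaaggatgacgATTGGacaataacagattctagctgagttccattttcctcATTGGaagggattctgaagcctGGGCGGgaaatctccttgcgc
H2ac22/H2bc22, chr13:21787249-21787487, plus strand: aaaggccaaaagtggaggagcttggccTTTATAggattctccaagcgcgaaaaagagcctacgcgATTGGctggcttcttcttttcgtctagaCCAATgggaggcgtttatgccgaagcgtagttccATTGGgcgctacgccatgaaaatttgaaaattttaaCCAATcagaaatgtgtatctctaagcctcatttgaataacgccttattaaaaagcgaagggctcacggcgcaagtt
H2ac15/H2bc15, chr13:21753913-21754075, plus strand: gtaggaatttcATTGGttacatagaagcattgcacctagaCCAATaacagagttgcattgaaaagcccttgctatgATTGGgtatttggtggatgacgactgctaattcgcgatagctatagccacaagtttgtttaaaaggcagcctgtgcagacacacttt
In these stretches, GC content ran from 41.7% in H2ac15/H2bc15 to 73.0% in Ro60/Uchl5. Ro60/Uchl5 had 2 GC boxes and no CCAAT box, whereas H2ac22/H2bc22 had 4 CCAAT boxes and no GC box. The listed summit lay inside the printed stretch in Ro60/Uchl5, Nudt21/Ogfod1, Ranbp1/Trmt2a and H2ac22/H2bc22. The printed stretches run between the starts of the promoter table, which can lie farther apart than the gene ends used for the rule: 158 and 83 bp for Nudt21/Ogfod1. The summit lay 34 bases to the left of the Npc2 start and 55 bases to the left of the Larp7 start.

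Gene-pair sites sat at closely spaced gene ends, as the rule requires, since both ends must lie within 1000 bp of the summit. The nearest ends of the paired genes were a median of 166 bp apart (quartiles 62 to 395), and 956 sites, or 80.7%, had ends within 500 bp of each other. The summit lay a median of 51 bp from the nearer end and 198 bp from the next one, against 70 bp from the end of the gene at single-gene sites. It lay between the ends at 525 sites, or 44.3%, and the gene bodies overlapped at 365, or 30.8%. Summits fell inside an annotated gene body at 66.0% of gene-pair sites and 51.4% of single-gene sites. The nearer of several ends tends to be closer than a lone end, and several genes offer more gene body than a lone gene. These contrasts between the classes may thus follow from the rule, which was not tested. Few summits were on the X chromosome: 21 gene-pair sites (1.77%) and 113 single-gene sites (2.33%).

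The arrangement was read from the 2 nearest genes of each site. Strand was known for both at 912 of the 1185 sites, from the RefSeq promoter table. Of these, 709 (77.7%) joined the starts of head-to-head genes and 180 (19.7%) joined a start of one gene with the 3′ end of another. A further 20 had starts on the same strand and 3 joined only 3′ ends. At 173 of the 180 sites with a start and a 3′ end, the start was the nearer end. In all, 99.7% of these gene-pair sites included at least 1 start, and 98.7% of the single-gene sites of known strand lay at a start. Sites between tail-to-tail genes were thus rare in this list.

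The reverse count began from all pairs of neighbouring genes whose ends lie within 2000 bp of each other and whose strands are known. A gene-pair site was listed in CD93-negative replicate 1 at 711 of 1005 head-to-head pairs, or 70.7% (67.8 to 73.5). The share was 19.9% (17.4 to 22.5) of 975 pairs with a start next to a 3′ end and 0.763% of 1049 tail-to-tail pairs. In CD93-negative replicate 2 the same shares were 35.9%, 6.05% and 0.381%. In CD93-positive replicate 2 they were 8.26%, 1.13% and 0, where a count of 0 has an exact upper limit of 0.351%, for counting error only. The order of the 3 arrangements was the same in these 3 libraries. The arrangements also differed in the gap between ends. Its median was 165 bp for head-to-head pairs, 828 bp for a start next to a 3′ end and 544 bp for tail-to-tail pairs. A wider gap leaves less room within 1000 bp of both ends, and the shares were not adjusted for it.

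**Figure D1:**
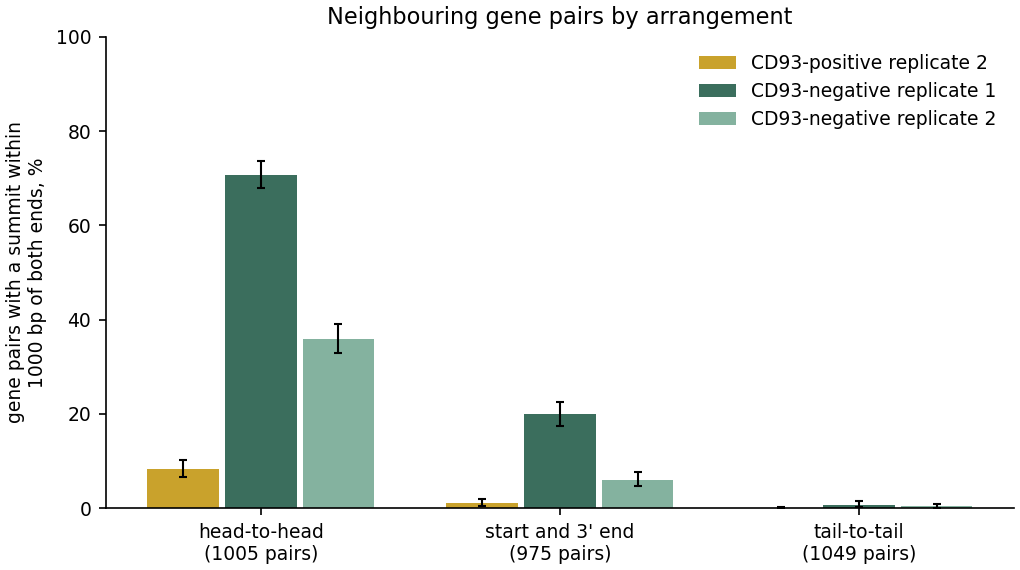
Share of neighbouring gene pairs (percent, vertical axis) with a gene-pair site, by the arrangement of their ends, in each of the 3 longer lists; bars start at 0 and error lines are exact 95% intervals for counting error only. Head-to-head pairs stand highest in each library, at 70.7% in CD93-negative replicate 1, and tail-to-tail pairs are at or near 0.

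At 467 head-to-head sites the gene bodies did not overlap, and here the summit's place could be read against both starts. These starts are the 5′ gene ends used for the rule, not the starts of the promoter table. The gap between the starts had a median of 100 bp (quartiles 48 to 212) and was at most 250 bp in 370 pairs, or 79.2%. The summit lay between the starts in 222 pairs (47.5%) and within 100 bp of the midpoint in 320 (68.5%). Its median distance was 54 bp from the midpoint and 42 bp from the nearer start. At gaps this short a summit on a start is itself close to the midpoint. Closeness to the midpoint therefore does not show that summits favour it over a start. Scores were highest at moderate gaps. The median score was 24.4 for the 235 pairs with gaps of up to 100 bp, 32.0 for the 135 pairs with 101 to 250 bp and 34.1 for the 72 pairs with 251 to 500 bp. It was 26.7 for the 24 pairs with 501 to 1000 bp. A separate count took 354 head-to-head pairs whose promoter-table starts were 20 to 250 bp apart. It used sites near exactly 2 genes and left out chromosome 18. The summit lay between those starts in 221 (62.4%).

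**Figure D2:**
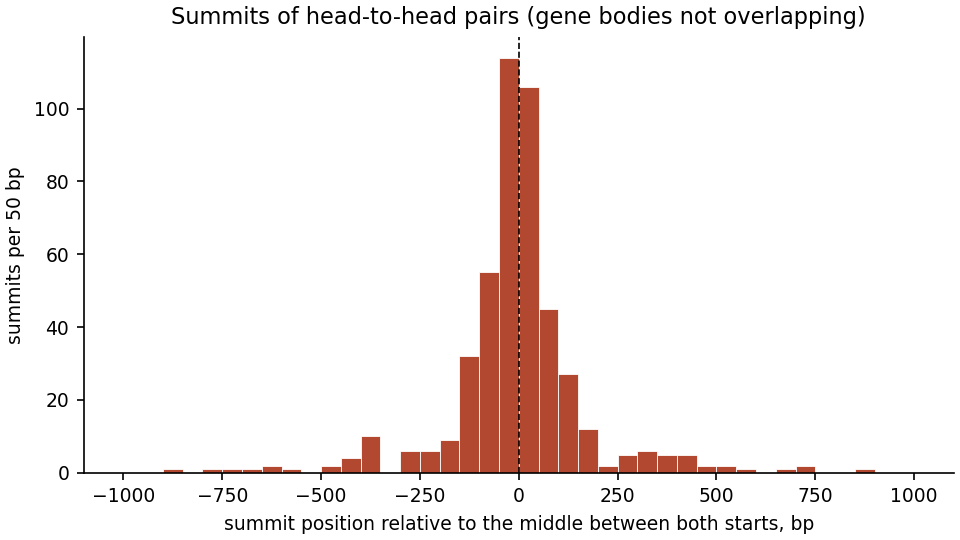
Histogram of the position of the summit relative to the midpoint between the starts (bp, horizontal axis) for the 467 head-to-head sites with non-overlapping genes, as summits per 50 bp (vertical axis). Of the 467 summits, 320 lie within 100 bp of the midpoint. The median gap between the starts is 100 bp, so a summit on a start also lies close to the midpoint. Starts are the 5′ gene ends used for the rule.

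The score is the authors' −log10 of a p or q value for a summit, set against the background of its own library. In CD93-negative replicate 1, gene-pair sites scored from 3.25 to 121.3 with a median of 24.8 (quartiles 14.8 to 38.5). Single-gene sites had a median of 22.5 (13.2 to 37.8), and summits near no gene end 14.1. The medians of gene-pair and single-gene sites were 10.4 and 9.91 in the shorter CD93-negative list, and 7.47 and 8.29 in the longer CD93-positive one. The CD93-positive replicate 1 values were 3.36, from 1 summit, and 3.88, from 2 summits. The gene-pair median was the higher one in both CD93-negative lists and the lower one in both CD93-positive lists. Over the 3 longer lists the log2 ratio of medians was 0.02 ± 0.15 (SD, n = 3), positive in 2 of 3, and did not pass an exact sign-flip permutation test (two-sided p = 1, smallest possible 0.25). The ratio differed between lists by more than its mean.

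**Figure D3:**
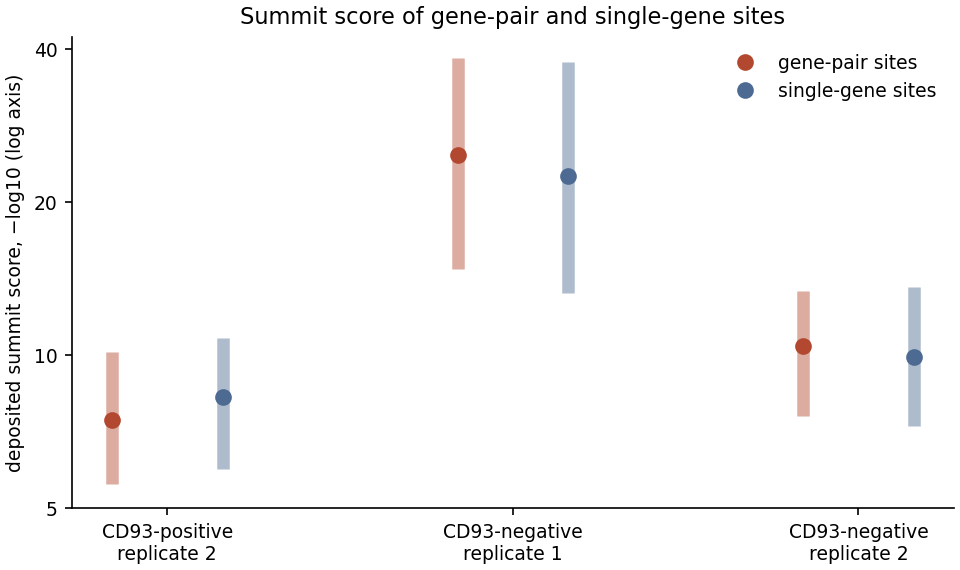
Scores (−log10 of a p or q value, vertical axis, as deposited) of gene-pair and single-gene sites in each of the 3 longer lists, on a log axis; points are medians and thick lines run between quartiles. The quartile ranges of the 2 classes overlap in each list, with medians of 24.8 and 22.5 in CD93-negative replicate 1.

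Within head-to-head sites the median score was 26.2 (quartiles 15.8 to 40.9), and at sites with a start and a 3′ end it was 22.1. Single-gene starts had a median of 23.4 and single-gene 3′ ends 12.5. Members that recurred in CD93-negative replicate 2 had a median score of 35.5 in CD93-negative replicate 1, against 18.3 for those that did not, and for CD93-positive replicate 2 the medians were 56.8 and 23.0. These medians come from 1 library and have no replicate check.

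Gene-pair sites recurred more often than single-gene sites in the other CD93-negative library. A summit lay within 250 bp in CD93-negative replicate 2 for 512 gene-pair sites, or 43.2% (40.4 to 46.1), and for 1645 single-gene sites, or 33.9% (32.6 to 35.2). The background over all 7977 summits was 32.0%. The difference was 9.31 percentage points (Newcombe 95% interval 6.21 to 12.4), and 7.23 points with single-gene sites weighted to the same score deciles. In CD93-positive replicate 2, 112 gene-pair sites (9.45%) and 462 single-gene sites (9.52%) recurred, against a background of 8.59%. That difference was -0.07 points (-1.83 to 1.90), so any excess in this list was under 1.90 points for counting error alone. In CD93-positive replicate 1, 1 gene-pair site and 2 single-gene sites recurred, against a background of 0.100%.

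Recurrence in both of the other longer lists was 8.10% (96 sites) for gene-pair sites and 7.95% (386 sites) for single-gene sites, with a background of 7.21%. Over the 3 other libraries the mean difference was 3.09 ± 5.38 points (SD, n = 3), positive in 2 of 3, and an exact two-sided sign-flip permutation test gave p = 0.75 (smallest possible 0.25). The excess was thus seen against CD93-negative replicate 2 and was not shown across libraries. When CD93-negative replicate 2 was cut to its 701 highest-scoring summits, the length of the CD93-positive replicate 2 list, 11.2% and 9.27% recurred, a difference of 1.95 points (0.07 to 4.03).

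The excess in CD93-negative replicate 2 was present at every level of score. It ran from 3.51 to 12.2 points over the 10 deciles of score, and 5 of the 10 intervals did not include 0. In the highest decile 88.7% of gene-pair sites and 85.1% of single-gene sites recurred, and in the lowest decile 6.56% and 1.84%. In CD93-positive replicate 2 the gene-pair share was higher in 2 deciles, lower in 6 and equal in 2, and no interval left out 0. In its highest decile the shares were 47.5% and 47.7%.

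**Figure D4:**
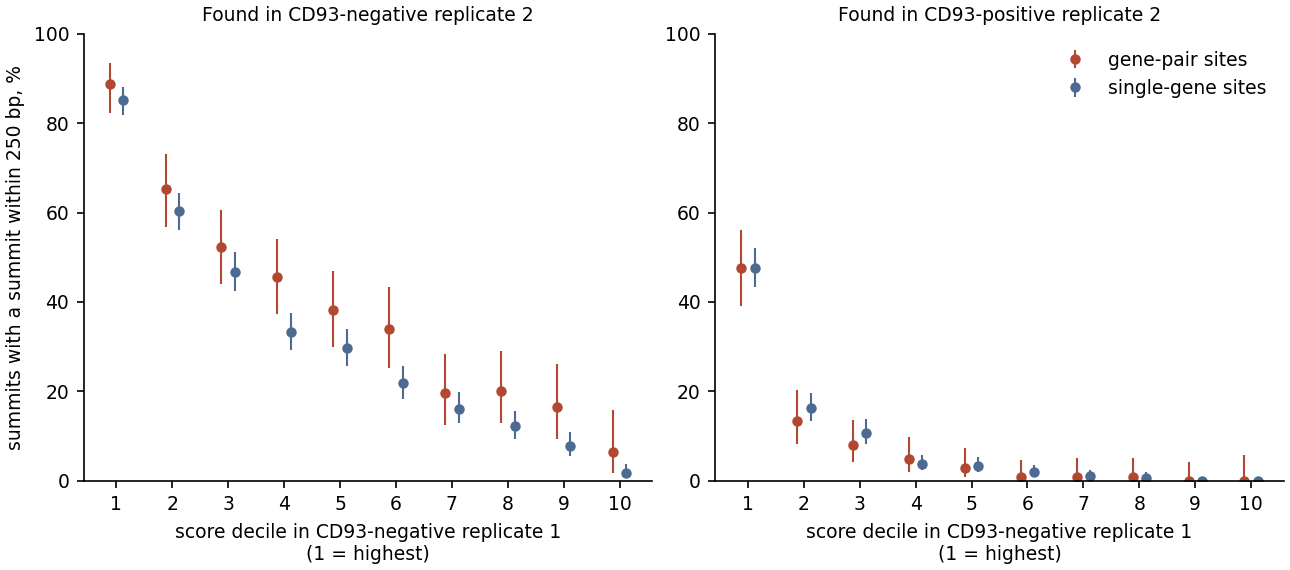
Share of gene-pair and single-gene sites with a summit within 250 bp in CD93-negative replicate 2 and CD93-positive replicate 2 (percent, vertical axis), by decile of score in CD93-negative replicate 1 (1 is highest); points are shares and lines exact 95% intervals for counting error only. Gene-pair sites lie above single-gene sites in all 10 deciles for CD93-negative replicate 2, and in 2 of 10 for CD93-positive replicate 2.

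The arrangement of the genes separated the members. In CD93-negative replicate 2, 47.2% (43.5 to 51.0) of head-to-head sites recurred, against 30.0% (23.4 to 37.3) of sites with a start and a 3′ end and 34.7% (33.2 to 36.2) of single-gene starts. Head-to-head sites exceeded single-gene starts by 12.6 points (8.64 to 16.6). Sites with a start and a 3′ end differed from single-gene starts by -4.66 points (-11.1 to 2.54), which includes 0. In CD93-positive replicate 2 the shares were 11.1%, 6.67% and 9.93%, and head-to-head sites exceeded single-gene starts by 1.21 points (-1.12 to 3.89). By gap between starts, recurrence in CD93-negative replicate 2 was counted at the 467 head-to-head sites whose gene bodies did not overlap. It was 41.3% at gaps of up to 100 bp and 57.8% at 101 to 250 bp. At 251 to 500 bp it was 69.4%, and at 501 to 1000 bp 41.7% (10 of 24). The shares by arrangement and by gap were not weighted to equal scores.

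The CD93 groups were compared by the share of gene-pair sites among summits near a gene end, with the rule applied to each list. For the CD93-positive libraries the shares were 33.3% (1 of 3 summits) in replicate 1 and 19.9% (117 of 587) in replicate 2. For the CD93-negative ones they were 19.6% (1185 of 6038) and 23.7% (543 of 2287). The groups overlapped. Means were 26.6 ± 9.48% (SD, n = 2) and 21.7 ± 2.91% (SD, n = 2), a difference of 4.95 points that did not pass an exact two-sided permutation test (p = 0.667, smallest possible 0.333). The share in CD93-positive replicate 1 rests on 3 summits, and without that library the difference was -1.75 points.

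Nearly all gene-pair sites of the shorter lists were also in the longest one. Of the 117 in CD93-positive replicate 2, 113 (96.6%, 91.5 to 99.1) lay within 250 bp of a summit of CD93-negative replicate 1, and of the 543 in CD93-negative replicate 2, 513 (94.5%, 92.2 to 96.2) did. For single-gene sites the shares were 98.3% and 94.4%.

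The highest-scoring gene-pair site was that of Rbbp4, a histone chaperone subunit of chromatin complexes, and Zbtb8os, a cofactor of tRNA splicing (chr4:129335446). It scored 121.3 in CD93-negative replicate 1, 22.8 in CD93-negative replicate 2 and 14.5 in CD93-positive replicate 2. The 5′ gene ends of this pair are 162 bp apart. BC005624/Usp20, with the deubiquitinase gene Usp20, scored 110.3, 18.3 and 20.2 in the same order. Ppp1r10/Mrps18b, a phosphatase regulator and a mitochondrial ribosomal protein, scored 109.5, 20.6 and 9.46. None of these 3 was in CD93-positive replicate 1, and scores of different libraries are not scaled to each other.

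Further sites among the 10 of highest score included Mpc2/Dcaf6, with a subunit of the mitochondrial pyruvate carrier, at 94.1, 19.5 and 10.1. Mdh2/Styxl1, with mitochondrial malate dehydrogenase, scored 90.3, 27.2 and 10.9, and Casc1/Etfrf1 scored 88.2, 18.3 and 10.3. Hnrnpa2b1/Cbx3, an RNA-binding protein and a heterochromatin protein, scored 90.3 and 10.5 in the CD93-negative libraries and was not in CD93-positive replicate 2. The same held for Zfp654/Cggbp1 at 101.6 and 19.6, and for Esrra/Catsperz, with a nuclear receptor of mitochondrial metabolism, at 88.6 and 16.4. Zfand5/LOC115489044 scored 91.1, 19.01 and 8.91. Of the 10, 7 were listed in all 3 longer lists, against 8.10% of all gene-pair sites and 7.21% of all summits. The 10 were picked by score, and high-scoring summits of both classes recurred more. In the highest score decile, 47.5% of gene-pair and 47.7% of single-gene sites recurred in CD93-positive replicate 2.

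The sites with the highest lowest score over the 3 longer lists included Npc2/Isca2, a lysosomal cholesterol-binding protein and a mitochondrial iron-sulphur cluster assembly factor. It scored 74.6, 19.5 and 13.0 in CD93-negative replicates 1 and 2 and CD93-positive replicate 2. Larp7/Zgrf1, with a binding protein of the 7SK RNA, scored 70.2, 20.8 and 12.3. Uchl5/Ro60, a proteasome-associated deubiquitinase and an RNA-binding protein, scored 53.5, 11.9 and 14.7. Maz/Kif22, a zinc finger factor and a kinesin, scored 48.0, 20.7 and 16.1, and Fam160a2/Cnga4 83.1, 25.0 and 13.0. Chchd7/Plag1, with a zinc finger oncogene, scored 83.3, 17.1 and 13.3, and 1700125H20Rik/Usp32, with a deubiquitinase, scored 70.4, 19.03 and 12.5. Nudt21/Ogfod1 was the one gene-pair site found in CD93-positive replicate 1, with 3.36 there and 40.3 and 18.2 in the CD93-negative libraries. Nudt21 encodes a subunit of the factor that cleaves pre-mRNA 3′ ends. The site was not in CD93-positive replicate 2.

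Some high-scoring sites were listed in CD93-negative replicate 1 alone: Spata5/Nudt6 at 74.4, Sec61a2/Dhtkd1 at 67.3 and Nelfe/Skiv2l at 66.8. Among sites near 3 genes, Rspry1/Psme3ip1/LOC115486880 scored 71.2, and Ak6/Taf9/Rad17, whose Taf9 is a TFIID subunit, scored 38.9. At the edge of the rule, Tusc2/Rassf1 had its next gene end 998 bp away and scored 22.5, and Rccd1/Unc45a had it 991 bp away and scored 53.3. Just outside lay Rbm18, whose next gene end was 1001 bp away, at 15.03, and Btf3l4, with 1005 bp, at 29.4.

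Well-known gene pairs were looked up next. Of 16, 13 had a gene-pair site in CD93-negative replicate 1, with scores of 6.73 to 67.3 and a median of 27.9. Of these, 7 of 13 were also in CD93-negative replicate 2 and 2 of 13 in CD93-positive replicate 2, against 43.2% and 9.45% of all gene-pair sites. Atm/Npat, the DNA damage kinase and a coactivator of histone genes, scored 67.3, 12.1 and 9.71 in CD93-negative replicates 1 and 2 and CD93-positive replicate 2. Brca1/Nbr1, with a homologous recombination gene, scored 37.2 and 10.9 in the CD93-negative libraries. Prkdc/Mcm4, a DNA end-joining kinase and a subunit of the replicative helicase, scored 46.0 and 13.2 there, and Hspd1/Hspe1, the mitochondrial chaperonin and its co-chaperonin, 36.7 and 15.2. In CD93-positive replicate 2, the Hspe1/Hspd1 summit lay 293 bp from the one in CD93-negative replicate 1, past the distance used, with a score of 4.42. Mrps12/Sars2, a mitochondrial ribosomal protein and the mitochondrial seryl-tRNA synthetase, scored 23.3 and 19.4. Ranbp1/Trmt2a, a Ran regulator and a tRNA methyltransferase, scored 56.6 in CD93-negative replicate 1 and was in no other list. Col4a1/Col4a2, the basement membrane collagen genes whose ends are 84 bp apart, had no summit at either gene, and neither did Tk1/Afmid, whose ends are 584 bp apart. Acat2/Tcp1 could not have a site by the rule, since their ends are 17975 bp apart in the table.

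The remaining known pairs had lower or single-library values. Paics/Ppat, neighbouring genes of purine synthesis, scored 21.4 in CD93-negative replicate 1 and 8.09 in CD93-negative replicate 2. Gart/Son, with another purine synthesis gene, had 2 summits in CD93-negative replicate 1, the higher at 27.9, and none elsewhere. Hadha/Hadhb, the subunits of the mitochondrial trifunctional protein of fatty acid oxidation, scored 16.5. Sirt3/Psmd13, a mitochondrial deacetylase and a proteasome subunit, scored 12.8, Trp53/Wrap53, with the p53 tumour suppressor gene, 9.86, and Surf1/Surf2, with a cytochrome c oxidase assembly factor, 6.73. None of these 4 pairs had a summit within 250 bp in another list, but Sirt3/Psmd13 had one in CD93-negative replicate 2 that lay 474 bp away, with a score of 5.33.

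Gene classes were defined by symbol patterns, so a class can hold paralogs and assembly factors. Of all 21631 genes, 10.8% lay at a gene-pair site and 21.8% at single-gene sites only. Mitochondrial ribosomal protein genes lay at gene-pair sites in 33 of 78 (42.3%), DNA damage and repair genes in 36 of 86 (41.9%) and histone genes in 39 of 101 (38.6%). Aminoacyl-tRNA synthetases followed with 14 of 38 (36.8%), splicing factors with 34 of 93 (36.6%) and respiratory chain genes with 41 of 113 (36.3%). The shares of these classes at single-gene sites only were, in the same order, 24.4%, 38.4%, 21.8%, 47.4%, 46.2% and 34.5%. Aminoacyl-tRNA synthetases and splicing factors were thus more often at single-gene sites only than at gene-pair sites. Cytosolic ribosomal protein genes lay mostly at single-gene sites, with 16 of 84 at gene-pair sites and 66.7% at single-gene sites only, and ubiquitin-conjugating enzyme genes had 5.41% and 64.9%. None of 39 Hox genes, 108 keratin genes or 1106 olfactory receptor genes lay at a gene-pair site, and none lay at a single-gene site either. In that order, 13, 11 and 19 of them had a neighbour's end within 2000 bp.

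Classes also differed in how often a gene has a close neighbour, which the rule requires. Of all genes 32.6% had a neighbour's end within 2000 bp, against 64.1% of mitochondrial ribosomal and 65.1% of DNA repair genes. Of genes with such a neighbour, 33.0% lay at a gene-pair site over all genes, against 66.0% of mitochondrial ribosomal protein genes, 70.0% of aminoacyl-tRNA synthetases and 69.6% of histone genes. Other classes lay near that share, such as chromatin modifiers at 33.8% and cytosolic ribosomal protein genes at 38.1%. Some lay below it, such as ubiquitin-conjugating enzymes at 15.4% and cytokine and chemokine receptors at 18.2%. Of 23 HSC transcription factor genes, 1, Etv6, lay at a gene-pair site, with a score of 4.72, and 7 lay at single-gene sites. Only 3 of the 23 had a neighbour's end within 2000 bp. The share at gene-pair sites among these 3 was 33.3%, beside 33.0% over all genes.

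**Figure D5:**
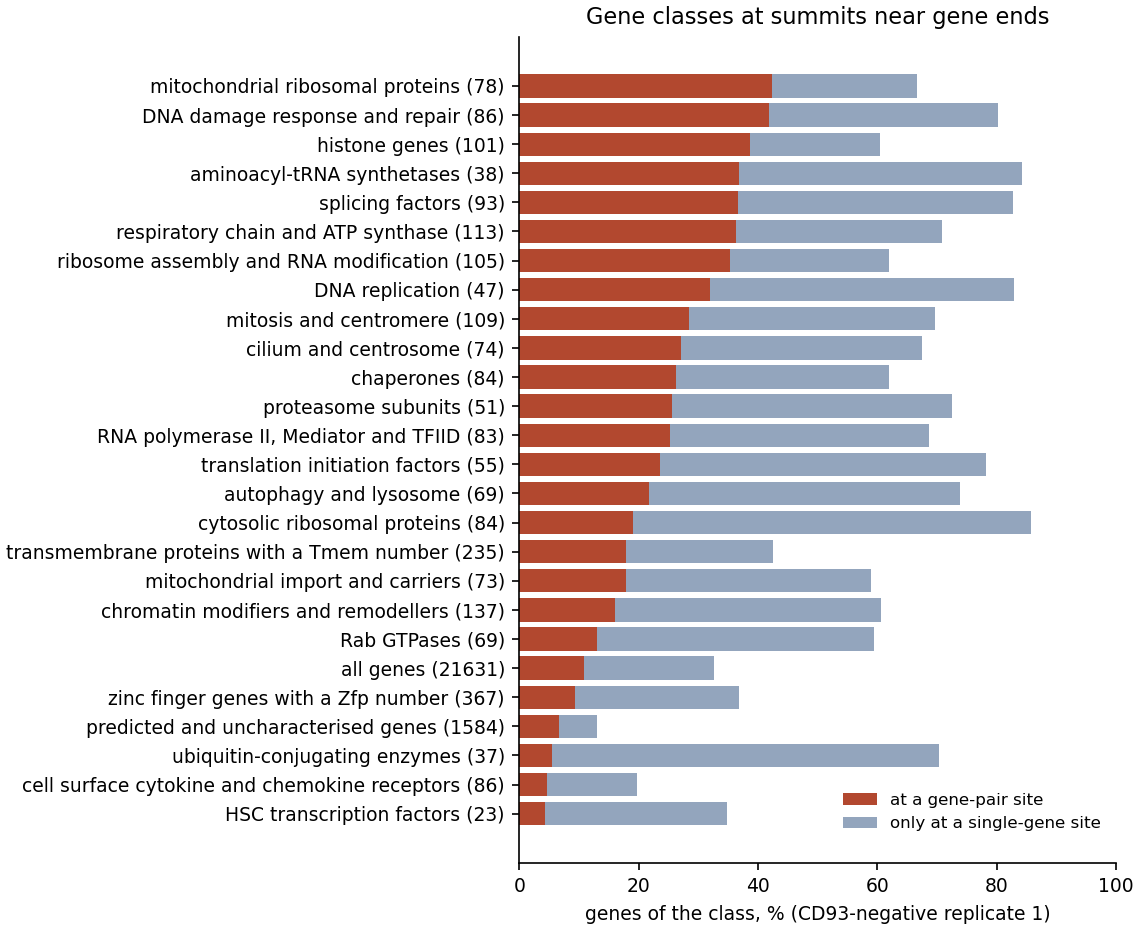
Share of the genes of each class (percent, horizontal axis) at gene-pair sites and, stacked on it, at single-gene sites only, in CD93-negative replicate 1; classes of under 20 genes and the Hox, keratin and olfactory receptor genes are left out, and numbers of genes are in parentheses. Mitochondrial ribosomal, DNA repair and histone genes have the largest shares at gene-pair sites (42.3%, 41.9% and 38.6%), and over all genes the share is 10.8%.

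Examples from these classes were Mrpl49/Fau at 53.9 and Mrpl32/Psma2, a mitochondrial ribosomal protein and a proteasome subunit, at 52.1. Cds2/Pcna, with the sliding clamp of replication, scored 52.1. Eif4a1/Senp3, with an RNA helicase of translation initiation, scored 72.5 and Tepsin/Ndufaf8, with a complex I assembly factor, 54.0. Mis12/Derl2, with a kinetochore protein, scored 81.1 and Cstf1/Aurka, with the mitotic kinase Aurora A, 43.2. The 35 splicing factor sites had a median score of 35.0, and 54.3% recurred in CD93-negative replicate 2 and 14.3% in CD93-positive replicate 2. The 21 histone sites had a median of 22.1, and 52.4% and none did, where 0 of 21 has an exact upper limit of 16.1%. None of the 42 respiratory chain sites recurred in CD93-positive replicate 2, with an exact upper limit of 8.41%, and 47.6% did so in CD93-negative replicate 2. Over all gene-pair sites 43.2% and 9.45% recurred in these lists, and over all summits 32.0% and 8.59%. The class counts are small and were not tested between classes or against these shares.

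At 31 sites all genes belonged to the same class, and most of these were histone sites. H4c17/H2ac23 scored 38.4 and H3c15/H2ac19 27.5, both in CD93-negative replicate 1 alone. The site near H2ac20, H2bc21 and H2ac21 scored 39.7 and was in 1 other list, and H2ac6/H2bc4, at 30.8, was as well. Zfp943/Zfp942, a pair of zinc finger genes, scored 23.9 and was in no other list. Histone genes are near-identical copies in clusters, so reads could be split between them by an alignment whose handling of repeats is not given.

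Histone H2A and H2B genes are often transcribed outwards from a common promoter. The 7 H2A/H2B pairs with starts 20 to 250 bp apart, a group singled out after its values were seen, each had 2 to 5 CCAAT boxes between the starts (median 4). Of the other 347 head-to-head pairs counted in that range, 63 (18.2%) had 2 or more and 227 (65.4%) had none. Chromosome 18 and sites near 3 or more genes were left out of this count. The stretches were longer in the histone pairs, with a median of 179 bp against 111 bp, and the box counts were not scaled to length. Median GC content was 42.3% in the histone pairs and 65.0% in the others, and a GC box occurred in 0 and 184 (53.0%). Their scores lay between 14.98 and 24.70 with a median of 17.6, against 26.2. H2ac22/H2bc22 scored 24.7 in CD93-negative replicate 1 and 8.73 in CD93-negative replicate 2, and H2ac15/H2bc15 scored 18.9 in CD93-negative replicate 1. Its summit in CD93-negative replicate 2, with a score of 8.34, lay 277 bp away and so did not count as recurring. The same held for H2ac12/H2bc12, at 23.2, with a summit of 10.7 lying 301 bp away.

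Promoter sequences of 300 bases, from 250 before to 50 after a start, were searched for motifs on both strands. Such windows overlap within a pair, so the pair's promoters are not independent. Median GC content was 63.3% in 1322 promoters of head-to-head sites and 63.3% in 3814 promoters of single-gene starts, against 56.7% in all 21045. The ratio of observed to expected CpG was 0.872, 0.834 and 0.574. The ETS motif CCGGAAG occurred in 30.9%, 21.1% and 11.7% of them, and the YY1 motif AAGATGGCG in 6.35%, 3.93% and 1.84%. The GC box GGGCGG was less frequent at head-to-head sites than at single-gene starts, at 70.8% and 76.7%, with 46.7% over all promoters. The TATA box TATAAA occurred in 4.31%, 5.64% and 12.7%, and CCAAT in 41.2%, 43.2% and 38.5%.

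Among 706 head-to-head sites with promoter sequence, 345 had a CCAAT box. Their median score was 29.8, against 22.8 without one. In CD93-negative replicate 2, 55.9% and 38.8% of them recurred, and in CD93-positive replicate 2, 13.3% and 9.14%. With and without an ETS motif the shares in CD93-negative replicate 2 were 47.2% and 47.2%. They were 58.0% and 46.3% for NRF1 (50 sites with it) and 60.0% and 46.5% for the CRE (35 sites). For AP-1 (30 sites) they ran the other way, at 33.3% and 47.8%. CCAAT was thus not alone among the motifs searched, and these shares were not weighted to equal scores. These relations were seen within 1 list of sites and were not tested across samples.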

How the data were processed

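Each of the 4 deposited files lists the 1-bp summits of 1 library with the authors' score, read here as −log10 of either a p-value or a q-value. Its exact kind, the calling threshold and tool versions were not given in the sources used here. Per the submitters' processing notes, the tools and build were Bowtie2, MACS2 and mm10. Scores are not scaled between libraries and were compared within a list. Where replicate numbers in summit names and titles differed, titles were followed.

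Gene ends were those of RefSeq on GRCm38.p6 (21631 protein-coding genes with unique symbols on chromosomes 1 to 19 and X). Strands came from the RefSeq promoter table, which covered 17274 of them. The starts used for promoter sequences and for the stretches between starts came from it too. Elsewhere a gene's start was its 5′ gene end. Summits of different lists within 250 bp counted as recurring. Shares have exact Clopper-Pearson 95% intervals and differences Newcombe intervals, which assume independent summits and hold counting error alone. Libraries were compared by exact permutation tests, which could not pass 0.05. The members, gene classes, known pairs and alternatives were chosen with earlier results of these data known. Sites were named by rank (the 10 of highest score and the 10 with the highest lowest score in the 3 longer lists), by recurrence in CD93-positive replicate 1, from 16 well-known pairs, from sites whose genes share a class, near 3 or more genes, at the edge of the 1000 bp window and in CD93-negative replicate 1 alone. Other pairs given as class examples, and the H2A/H2B pairs, were chosen after their values were seen. Some sites that the rule names are not reported here. Python 3.11.15, numpy 2.4.6, pandas 2.3.3, scipy 1.17.1 and matplotlib 3.10.9 were used, and the code was tested on simulated data.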

Additional observations from a re-analysis of the deposited data

Results flagged for a closer look

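The log2 ratio of the median score of gene-pair sites to that of single-gene sites had a different sign in the CD93 groups. For the CD93-positive libraries it was -0.21 (replicate 1) and -0.15 (replicate 2). For the CD93-negative libraries it was 0.14 and 0.07. The CD93-positive mean was lower by a log2 difference of -0.28. The exact permutation p was 0.333, which no split of 4 libraries into equal groups can go below. The value of CD93-positive replicate 1 rests on 1 gene-pair and 2 single-gene summits. With the CD93-negative lists cut to the length of the CD93-positive replicate 2 list, the ratio was -0.036 in CD93-negative replicate 1 and -5.2e-05 in CD93-negative replicate 2, so the positive sign in that group was not kept.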

How the results depend on the processing

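No test in this design could pass its threshold, so the alternatives bear on direction only. The mean excess of recurrence, 3.09 points, was -0.065 at equal list lengths and -2.65 for sites with a start and a 3′ end against single-gene starts (an alternative chosen after seeing the data). Leaving out 1 library moved it from -0.013, without CD93-negative replicate 2, to 4.68. The log2 ratio of median scores, 0.02, was -0.057 at a score of 10 or more, -0.0070 without overlapping gene bodies and -0.062 at equal list lengths. Leaving out 1 library moved it from -0.039, without CD93-negative replicate 1, to 0.10. The difference between groups in the share of gene-pair sites, 4.95 points, was -2.72 at a score of 5 or more, -4.11 at 10 or more and -6.18 with all summits as denominator. Leaving out 1 library moved it from -1.75, without CD93-positive replicate 1, to 11.6. The cause of these shifts was not tested. With the replicate number as a block the difference was 4.95 points (exact permutation p = 1), as 13.7 in replicate 1 and -3.81 in replicate 2, and nothing in the labels pairs the libraries. The number of gene-pair sites ran from 828 to 1633 over 8 alternatives.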

Other observations

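Of the 30 gene-pair sites of CD93-negative replicate 2 with no summit within 250 bp in CD93-negative replicate 1, 22 had one within 500 bp, as did all 4 of CD93-positive replicate 2. The highest was Rita1/Ddx54, at 24.2 in CD93-negative replicate 2, whose nearest summit in CD93-negative replicate 1 lay 298 bp away with a score of 63.1. In CD93-positive replicate 2 it was Tpr/Odr4, with the nuclear pore gene Tpr, at 10.2, whose nearest summit lay 323 bp away with a score of 42.8. Gene-pair sites made up 25.9% of gene-end summits on chromosome 17 and 25.7% on chromosome 7, but 12.5% on chromosome 6 and 9.55% on chromosome 18, in CD93-negative replicate 1. These chromosomes were chosen after their values were seen and were not tested against each other.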
